A study of Sander lucioperca with 12 samples.

Results

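The genes alas2, slc4a1a, kel and nt5c2l1, whose transcripts are abundant in fish red blood cells, were followed through whole-brain RNA-seq of juvenile pikeperch (Sander lucioperca). They are 4 of the 32963 named genes of the deposited count table and were picked by symbol. Their difference between the phenotypes of 2023 was known when they were picked. In every comparison that contains libraries of 2023 their values are therefore a description with no test, and they were tested only between the phenotypes of 2022.

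RNA came from 12 wild young-of-the-year fish of 1 reservoir, 1 library per brain, with 3 fish in each of 4 groups: piscivores of 2023, planktivores of 2023, piscivores of 2022 and planktivores of 2022. Piscivores were caught in the littoral zone with seines and planktivores in the pelagic zone with trawls, both in late August, so that habitat, fishing gear and body length went with the phenotype. Piscivores were the longer fish in each year, and both phenotypes were longer in 2022 than in 2023. The sex of the fish could not be told, and the labels for piscivores of 2023 also call them cannibals. Each year has its own batch date in the labels, so year and batch cannot be told apart. Libraries held 15327406 to 33858794 counts on named genes, and ribosomal RNA genes took 0.137% to 0.36% of them in 2023 and 12.0% to 21.0% in 2022.

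Red blood cells of fish keep their nucleus and go on transcribing genes while they circulate, so a brain taken with its blood brings their RNA along. Such cells make hemoglobin, which binds oxygen through heme, and exchange chloride for bicarbonate across their membrane to carry carbon dioxide. The gene alas2 encodes the erythroid 5-aminolevulinate synthase, the first enzyme of heme synthesis. The gene slc4a1a encodes band 3, the anion exchanger that also ties the membrane to the skeleton beneath it. The gene kel encodes the Kell protein, a metallopeptidase that carries blood group antigens on human red cells. The gene nt5c2l1 is named for its likeness to cytosolic purine 5′-nucleotidases, enzymes that remove the phosphate from purine nucleotides.

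In SLUC_FBN_1.2, the pikeperch assembly used for mapping, alas2 lies on the plus strand of chromosome 12 from 7574917 to 7583127, with 10 exon blocks in the annotation that the counts use. It shares 249 of its 2288 exon bases with ttc34 on the minus strand, and the strand setting of the counting is not given in the sources used here. Without strand, reads from these shared bases cannot be told apart. ttc34 had 7.56 to 9.50 CPM (counts scaled to a common library total) in piscivores and 7.54 to 24.1 CPM in planktivores of 2023, and 5.04 to 7.34 CPM in piscivores and 3.61 to 6.35 CPM in planktivores of 2022. slc4a1a lies on the plus strand of chromosome 21 from 24899677 to 24912856, with 21 exon blocks, and overlaps no other gene. kel lies on the minus strand of chromosome 10 from 24291613 to 24297004, with 18 exon blocks. Its span contains LOC116049692 on the same strand, but the exons of these genes share 0 bases. nt5c2l1 lies on the plus strand of chromosome 1 from 10105721 to 10117723, with 18 exon blocks, and overlaps no other gene.

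Levels of different genes were compared per length, as the deposited TPM, a unit that corrects counts for the length of the gene and the size of the library. In all 12 libraries alas2 was the highest of these genes and slc4a1a the next, with nt5c2l1 above kel in 8 libraries and below it in the other 4. Over the groups, alas2 had 66.0 to 126 TPM in piscivores of 2023, 114 to 264 TPM in planktivores of 2023, 32.7 to 93.6 TPM in piscivores of 2022 and 27.7 to 63.0 TPM in planktivores of 2022. kel was at 2.05 to 2.85 TPM in piscivores of 2023, 9.39 to 15.5 TPM in planktivores of 2023, 1.18 to 2.12 TPM in piscivores of 2022 and 2.28 to 4.63 TPM in planktivores of 2022. A sum over the genes gave 88.6 to 174 TPM in piscivores and 175 to 354 TPM in planktivores of 2023, and 46.7 to 125 TPM in piscivores and 42.2 to 78.8 TPM in planktivores of 2022. The planktivores of 2023 were thus the group with the highest sum, and their lowest library lay just above the highest library of any other group. Most of the sum in every library came from alas2, so the sum mainly describes alas2.

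**Figure D1:**
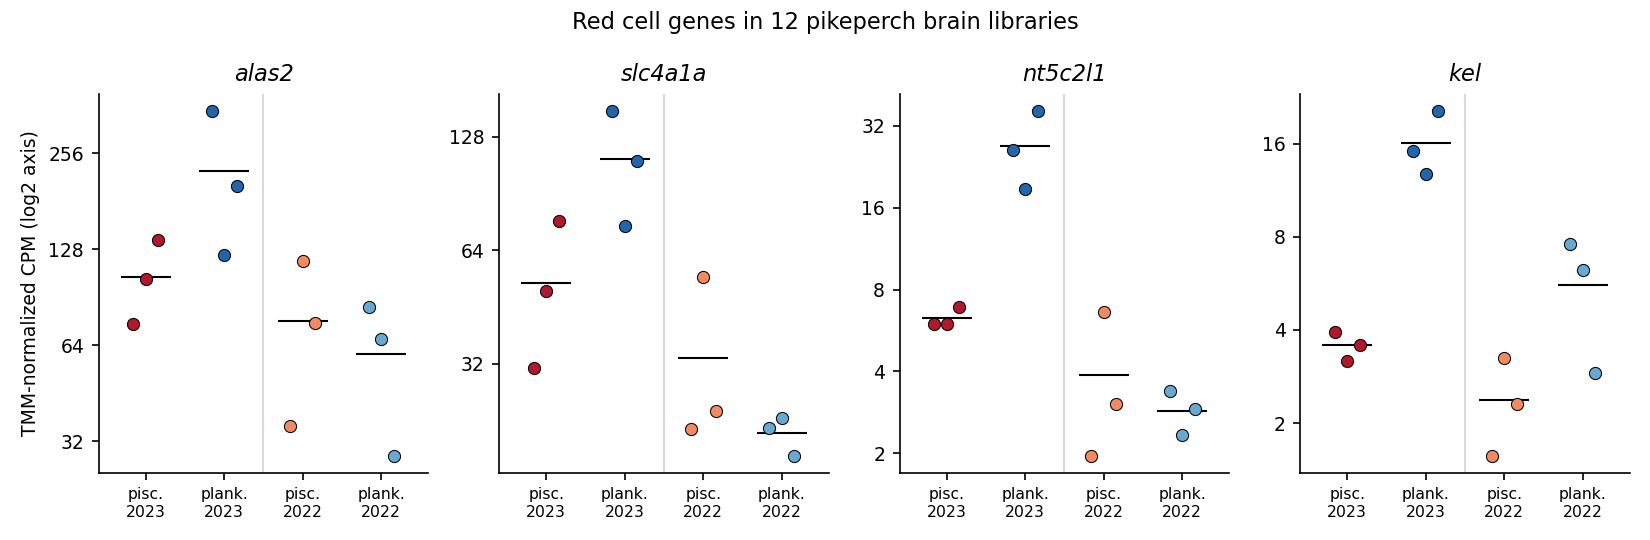
TMM-normalized CPM (vertical axes, log2 scale) of alas2, slc4a1a, nt5c2l1 and kel in piscivores (pisc.) and planktivores (plank.) of 2023 and 2022. Each point is 1 library and each bar the arithmetic mean of a group. In nt5c2l1 and kel the 3 planktivores of 2023 lie above every other library, whereas in alas2 and slc4a1a planktivore 5 of 2023 lies below piscivore 4 of 2023.

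Between the phenotypes of 2023, all of these genes had lower CPM means in piscivores than in planktivores, by 2.09-fold to 4.43-fold in edgeR's fit. Here and below, CPM values carry the TMM normalization of edgeR, and a group mean is given ± SD of 3 libraries. In bulk tissue, fewer red cells and less RNA per red cell cannot be told apart.

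kel had 3.93, 3.18 and 3.59 CPM in the piscivores of 2023, against 15.1, 12.8 and 20.4 CPM in the planktivores of that year. The lowest planktivore was far above the highest piscivore, so the groups did not overlap. The log2 fold change was −2.15 (SE, standard error, 0.22), or 4.43-fold lower in piscivores. nt5c2l1 had 5.97, 5.97 and 6.89 CPM in piscivores, against 26.0, 18.8 and 36.3 CPM in planktivores (log2 fold change −2.08, SE 0.25). Its groups did not overlap either, and its piscivores were close to one another, with 6.28 ± 0.530 CPM against 27.0 ± 8.82 CPM in planktivores.

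slc4a1a had 31.1, 49.8 and 76.6 CPM in piscivores of 2023, against 150.1, 74.1 and 110.5 CPM in planktivores. Piscivore 4 was slightly above planktivore 5, so the groups overlapped (log2 fold change −1.06, SE 0.37). For alas2 the values were 74.4, 103 and 137 CPM in piscivores, against 348, 123 and 202 CPM in planktivores (log2 fold change −1.07, SE 0.39). The same 2 libraries overlapped here, and planktivore 4 was the highest of the 12 libraries. Without planktivore 4 the log2 fold change of alas2 was −0.62, and that of slc4a1a −0.80.

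A gene counted as differentially transcribed (DT) where edgeR's quasi-likelihood p, adjusted by Benjamini and Hochberg's method over every gene tested, was below 0.05 and its log2 fold change was above 1 or below −1. By these thresholds in edgeR, kel and nt5c2l1 were among the genes lower in piscivores of 2023, whereas slc4a1a and alas2 were not. This contrast was known when the genes were picked, so these calls are a description and not a test of them. The paper, which used DESeq2's Wald test with the same cutoffs, lists slc4a1a as significantly upregulated in planktivores of 2023. The call for slc4a1a thus differed between the paper and edgeR. Of all 21386 genes tested, 0.168% were DT in this comparison and 0.0421% were DT and lower in piscivores. Groups that do not overlap, lower in piscivores, were found for 10.3% of all genes. As this contrast was known when the genes were picked, nothing is read from the groups of kel and nt5c2l1 that did not overlap.

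In 2022, the differences of these genes between the phenotypes had mixed signs, and none passed edgeR's test. kel was lower in piscivores on average, with 1.57, 3.25 and 2.31 CPM against 7.57, 6.25 and 2.91 CPM in planktivores. Piscivore 2 was above planktivore 4, so the groups overlapped. The log2 fold change of −1.21 (SE 0.41) did not pass the test (adjusted p = 0.550, unadjusted p = 0.0177, edgeR's quasi-likelihood test). The adjusted p lay between 0.223 and 0.564 over 8 alternative fits, and between 0.442 and 1.0 with 1 library left out.

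nt5c2l1 had 1.96, 6.61 and 3.05 CPM in piscivores of 2022, against 3.39, 2.33 and 2.91 CPM in planktivores (log2 fold change 0.45, SE 0.42, adjusted p = 0.875 from edgeR). Piscivore 1 was the lowest and piscivore 2 the highest of the year. slc4a1a had 21.4, 54.2 and 24.0 CPM in piscivores, against 21.6, 22.9 and 18.2 CPM in planktivores (log2 fold change 0.68, SE 0.35, adjusted p = 0.759). Apart from piscivore 2, its libraries of 2022 lay close together. alas2 had 35.8, 117 and 75.4 CPM in piscivores, against 84.4, 66.9 and 28.9 CPM in planktivores (log2 fold change 0.35, SE 0.54, adjusted p = 0.928).

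All of the groups of 2022 overlapped, and none of the 4 genes was DT, against 0.0533% of the 20624 genes tested and 13.7% of genes whose groups did not overlap. Over 8 alternative fits the adjusted p ranged from 0.592 to 1.0 for nt5c2l1, from 0.601 to 0.872 for slc4a1a and from 0.634 to 1.0 for alas2. The sign of 2 of these differences rested on piscivore 2: without it the log2 fold change was −0.19 for nt5c2l1 and −0.11 for alas2, and it was 0.12 for slc4a1a. For a single gene an exact permutation test of 3 libraries against 3 cannot give a two-sided p below 0.1.

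**Figure D2:**
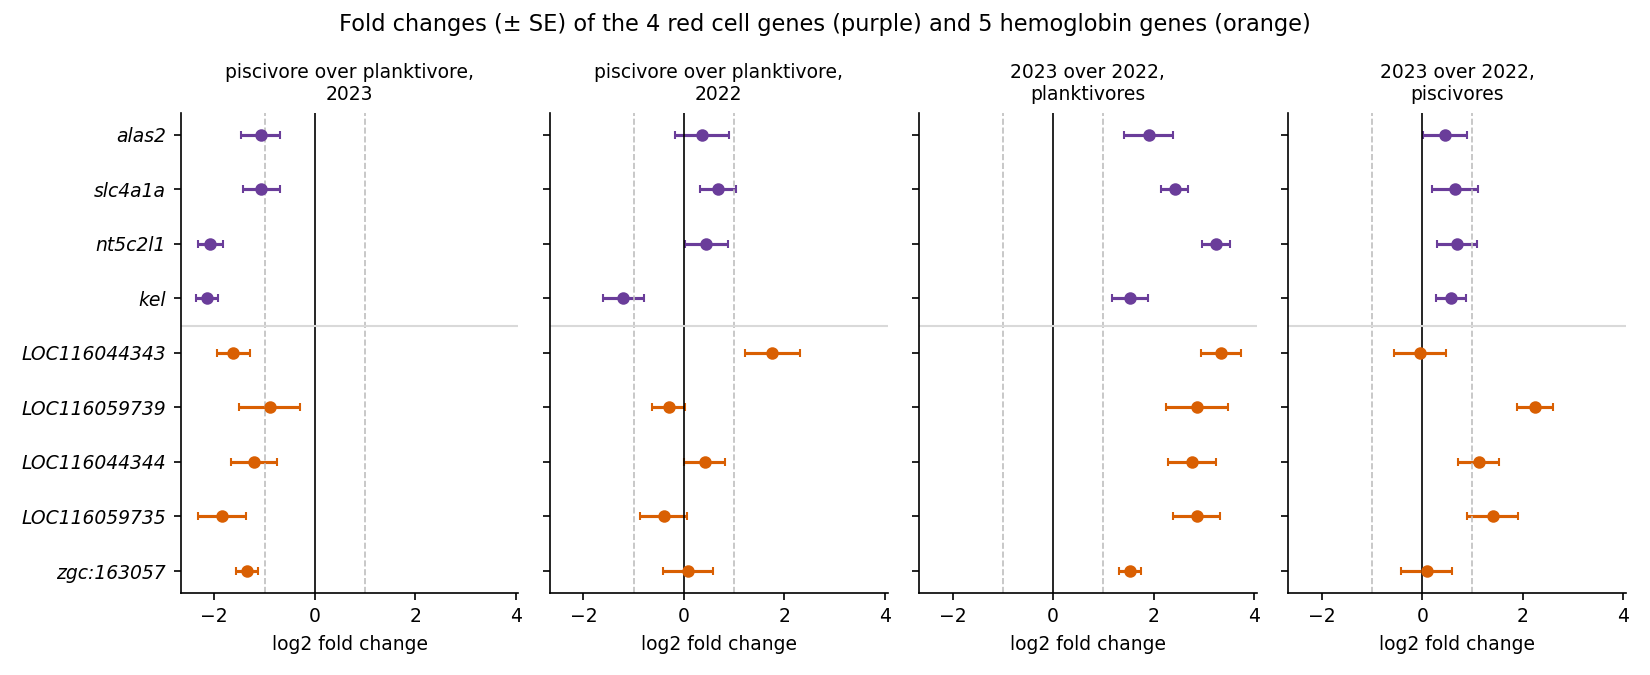
Log2 fold changes with standard errors (horizontal axes, edgeR) of the 4 red cell genes (purple) and of 5 hemoglobin genes (orange) in the 4 comparisons, with dashed lines at −1 and 1. All 9 genes are below 0 between the phenotypes of 2023 and above 0 between the years of planktivores, whereas in 2022 their phenotype differences fall on both sides of 0.

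Between years, the planktivores of 2023 were above those of 2022 in every one of these genes without overlap, beside 27.6% of all genes whose groups did not overlap in either direction. The log2 fold change, 2023 over 2022, was 3.24 (SE 0.28) for nt5c2l1, 2.42 (SE 0.26) for slc4a1a, 1.90 (SE 0.48) for alas2 and 1.54 (SE 0.36) for kel. As fold changes these are 9.43-fold, 5.34-fold, 3.74-fold and 2.90-fold. nt5c2l1 averaged 27.0 ± 8.82 CPM in planktivores of 2023 and 2.87 ± 0.529 CPM in those of 2022. kel averaged 16.1 ± 3.93 CPM in planktivores of 2023 and 5.58 ± 2.40 CPM in those of 2022. Of all 21311 genes tested, 13.2% had non-overlapping groups that were higher in 2023. The planktivores of 2023 entered the choice of the genes, so nothing is read from this count. Left out 1 at a time, no library turned a sign, and the log2 fold changes stayed between 1.2 and 3.44.

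In piscivores the years overlapped in each of these genes, while 24.5% of all genes did not overlap. slc4a1a averaged 52.5 ± 22.9 CPM in piscivores of 2023 and 33.2 ± 18.2 CPM in those of 2022, and alas2 averaged 105 ± 31.5 CPM in 2023 and 76.2 ± 40.8 CPM in 2022. Log2 fold changes of 2023 over 2022 were 0.58 (SE 0.30) for kel, 0.69 (SE 0.40) for nt5c2l1, 0.66 (SE 0.46) for slc4a1a and 0.46 (SE 0.44) for alas2. Without piscivore 2 of 2022 they were 0.85, 1.30, 1.19 and 0.89. The year comparisons share their libraries with the phenotype comparisons, so their values are not separate evidence. In 1 fit to all 12 libraries, subtracting the phenotype difference of 2022 from that of 2023 gave −2.54 (SE 0.52) for nt5c2l1, −1.75 (SE 0.57) for slc4a1a, −1.44 (SE 0.72) for alas2 and −0.95 (SE 0.48) for kel.

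The genes were then compared with one another, library by library. Over the 6 libraries of 2022, which had no part in the choice of the genes, slc4a1a, alas2 and nt5c2l1 went up and down together more than any of them did with kel, but no pair passed the test. On log2 CPM, Pearson's r was 0.85 for nt5c2l1 and slc4a1a, 0.73 for slc4a1a and alas2 and 0.70 for nt5c2l1 and alas2, with Spearman's rho of 0.60, 0.83 and 0.83. With kel, r was 0.46 for alas2, 0.18 for nt5c2l1 and −0.02 for slc4a1a, with rho of 0.49, 0.49 and 0.20. Adjusted over the 6 pairs, the exact permutation p for r lay between 0.197 and 0.967, and that for rho between 0.175 and 0.714.

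Piscivore 2 was the library with the highest slc4a1a, alas2 and nt5c2l1 of 2022, and the pairs depended on it to different degrees. Without it r was −0.07 for nt5c2l1 and slc4a1a, 0.46 for nt5c2l1 and alas2 and 0.79 for slc4a1a and alas2. For nt5c2l1 and slc4a1a, r was −0.14 when the 2 libraries farthest from the median of nt5c2l1 (piscivores 1 and 2) were left out. For the other pairs too, the 2 libraries farthest from the median of the first gene were left out, so they differed between pairs. Without piscivores 1 and 2, r was 0.17 for nt5c2l1 and alas2. Without planktivore 4 and piscivore 2, it was 0.46 for slc4a1a and alas2. Without planktivores 2 and 3, r was 0.84 for kel and nt5c2l1, 0.51 for kel and slc4a1a and 0.44 for kel and alas2. As a description, r lay between 0.72 and 0.99 over the 6 libraries of 2023, with the highest value for kel and nt5c2l1, and between 0.67 and 0.93 over all 12 libraries. The phenotype and year differences by which the libraries fall into groups are part of these values.

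Ratios of TPM between the genes were also taken within each library. The ratio of alas2 to slc4a1a varied least over the 12 libraries, from 2.65 to 6.53 in TPM, with overlapping groups. Ratios to kel did not overlap between the phenotypes of 2022, although none passed the test after adjustment. In piscivores of 2022, alas2 was at 27.8 to 44.1 times the TPM of kel, against 12.1 to 13.6 times in planktivores of 2022. In 2023 the ratio was 23.1 to 46.8 in piscivores and 11.8 to 28.1 in planktivores, with overlap.

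The ratio of nt5c2l1 to kel set the planktivores of 2022 apart from the other groups. It was 0.949 to 1.54 in piscivores of 2022, against 0.283 to 0.759 in planktivores of 2022. In 2023 it was 1.15 to 1.46 in piscivores and 1.12 to 1.35 in planktivores. The ratio of slc4a1a to kel was likewise 7.58 to 12.2 in piscivores of 2022 and 2.09 to 4.59 in planktivores of 2022. Each of these 3 ratios gave an exact two-sided permutation p of 0.1 in 2022, the smallest possible for 3 libraries against 3, and an adjusted p of 0.2 over the 6 ratios.

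**Figure D3:**
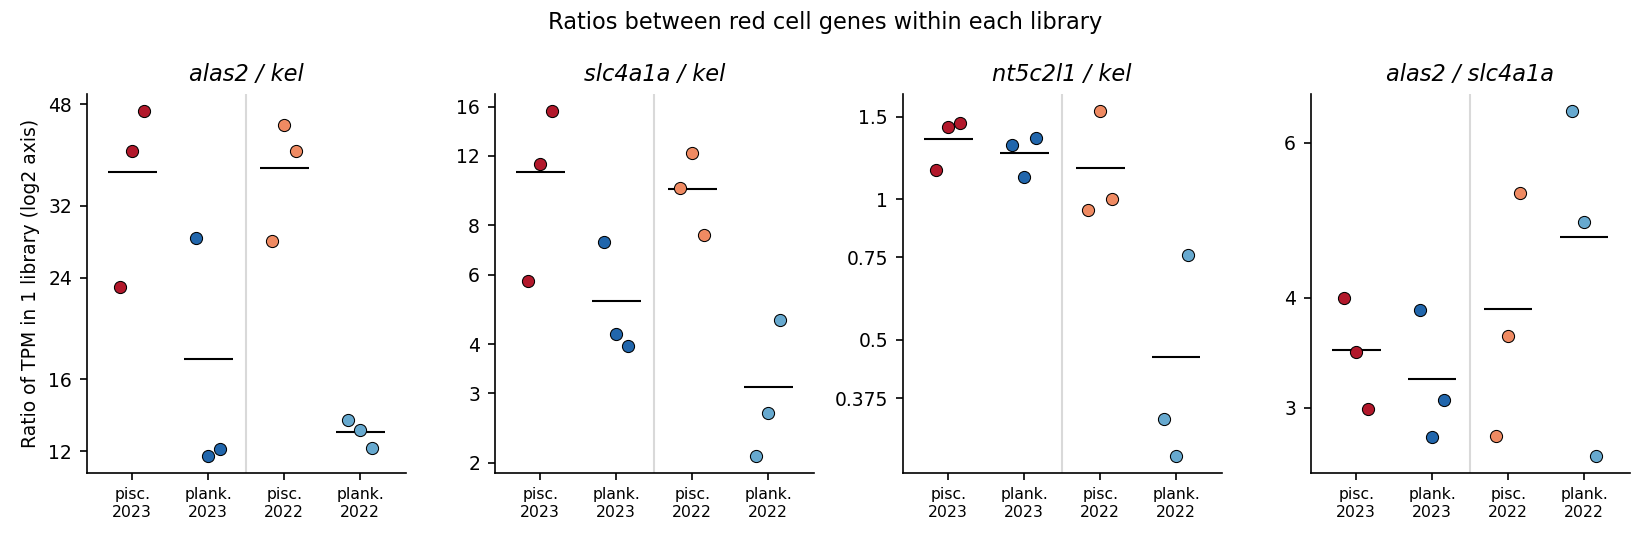
Ratios of TPM between red cell genes in each library (vertical axes, log2 scale), for piscivores (pisc.) and planktivores (plank.) of 2023 and 2022. Points are libraries and bars arithmetic means. In 2022 the ratios to kel do not overlap between the phenotypes, and the ratio of nt5c2l1 to kel is at most 0.759 in the planktivores of 2022 and at least 0.949 in every other library.

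Hemoglobin genes were the first set to be placed beside these genes. The count table and RefSeq name few of them, so 5 genes were taken by the names that the study's own tables of DT genes give them: the alpha-type genes LOC116044343 (hbae5), zgc:163057 (hbae4), LOC116044344 (hbaa1) and LOC116059739 (hbaa1) and the beta-type gene LOC116059735 (hbba2). Their choice is not independent of these libraries. Their likeness in sequence was not measured here. Only unique reads were counted, so any read that fits several of them equally would not be counted. On chromosome 22, LOC116044343, zgc:163057 and LOC116044344 lie together, and the other two lie on chromosome 21. Their summed level was 6145 to 8272 TPM in piscivores and 13479 to 28987 TPM in planktivores of 2023, and 2804 to 8738 TPM in piscivores and 2036 to 2679 TPM in planktivores of 2022. Planktivores of 2023 were thus highest in this sum too, while in 2022 it was piscivores that were the higher group, without overlap. The gap in 2022 was narrow, with 2804 TPM in the lowest piscivore and 2679 TPM in the highest planktivore. Most of the sum in every library came from LOC116044343, which had 1995 to 7771 TPM in piscivores and 1058 to 1920 TPM in planktivores of 2022. Each of the other hemoglobin genes overlapped in TPM between the phenotypes of 2022, so the sum mainly describes LOC116044343.

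Between the phenotypes of 2023, all 5 hemoglobin genes had negative log2 fold changes, with a median of −1.35 beside −0.00 over all genes. None was DT by edgeR, although 4 had an unadjusted p below 0.05 and 3 were called by DESeq2's Wald test, beside 13.7% and 1.87% of all genes. As these genes were taken from the study's own DT calls, nothing is read from these counts. LOC116044343 had 1364, 2132 and 1314 CPM in piscivores, against 7488, 3346 and 4198 CPM in planktivores (log2 fold change −1.62, SE 0.33, adjusted p = 0.122 from edgeR). In 2022 it went the other way, with 644, 2873 and 1450 CPM in piscivores against 515, 639 and 325 CPM in planktivores (log2 fold change 1.75, SE 0.55, adjusted p = 0.538). Neither of these pairs of groups overlapped, and the lowest piscivore of 2022 was barely above the highest planktivore of that year. The other 4 hemoglobin genes overlapped between the phenotypes of 2022, with log2 fold changes from −0.41 to 0.42.

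Between the years of planktivores, 4 of the 5 hemoglobin genes rose in 2023 by edgeR's test, beside 0.202% of all genes that were DT and higher in 2023 and 0.971% that were DT in either direction. The 5 genes were taken from the study's DT genes of these libraries, so neither this count nor the p-values below are independent support. Their median log2 fold change was 2.85, beside 0.0016 over all genes. LOC116044343 averaged 5011 ± 2187 CPM in planktivores of 2023 and 493 ± 158 CPM in those of 2022 (log2 fold change 3.35, SE 0.40, adjusted p = 0.0215). LOC116059735 (2.85, adjusted p = 0.0411), zgc:163057 (1.53, adjusted p = 0.0337) and LOC116044344 (2.76, adjusted p = 0.0499) rose as well on the log2 scale. LOC116059739 had 2.86 and an adjusted p of 0.0669. These calls did not hold without single libraries: the number of hemoglobin genes called was 0 without planktivore 2, 3 or 4 of 2022 or planktivore 6 of 2023, and 3 without planktivore 4 or 5 of 2023. In piscivores, none was DT between years by edgeR (0.356% of all genes were), with 3 at an unadjusted p below 0.05 (17.3% of all genes) and 3 called by DESeq2 (1.85%), and without piscivore 1 of 2023 edgeR called 1.

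**Figure D4:**
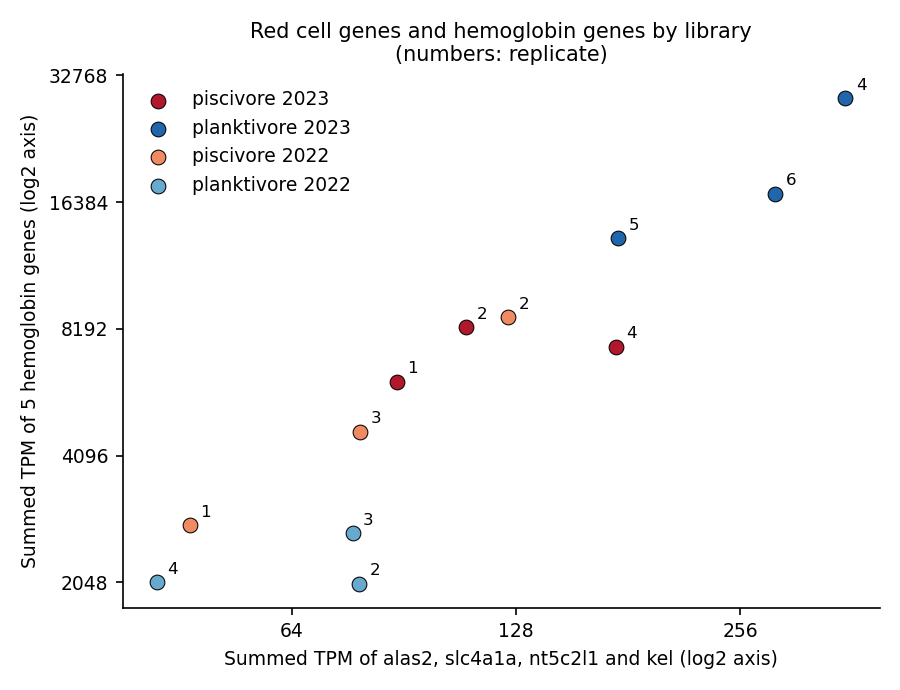
Summed TPM of alas2, slc4a1a, nt5c2l1 and kel (horizontal axis) against summed TPM of 5 hemoglobin genes (vertical axis, both log2 scales), 1 point per library with its replicate number. In every library alas2 makes up most of the sum on the horizontal axis. Planktivores of 2023 lie at the upper right. Planktivores 2 and 3 of 2022 have red cell gene sums near that of piscivore 3 of 2022 but lower hemoglobin sums.

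A second gene, LOC116062215, bears the name alas2 in the study's tables of DT genes, so its choice is not independent of these libraries. It lies on the minus strand of chromosome 12 from 28003617 to 28008680, far from alas2 itself, and did not follow it. In piscivores of 2023 it had 5.33, 12.2 and 9.59 CPM, against 0.524, 0.504 and 0.420 CPM in piscivores of 2022. The values of 2022 rested on 8, 9 and 8 counts. LOC116062215 rose in 2023 (log2 fold change 4.20, SE 0.38, adjusted p = 0.00363 from edgeR), and the call held with each of the 6 libraries left out, with adjusted p-values from 0.000265 to 0.0455. As the gene was taken from DT genes of these libraries, its p-values are no independent support. In 1 fit to all 12 libraries the adjusted p was 0.0701 and the gene was not DT. Between the phenotypes it had 5.09, 1.71 and 1.02 CPM in planktivores of 2023, below every piscivore of that year but not DT (log2 fold change 1.83, SE 0.60, adjusted p = 0.266), where alas2 had −1.07. In 2022 it had 0.753, 4.25 and 0.479 CPM in planktivores (log2 fold change −1.92, SE 0.87, adjusted p = 0.707). alas1, the 5-aminolevulinate synthase of all tissues, had log2 fold changes between −0.18 and 0.33 in the 4 comparisons and was DT in none of them.

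Of 76 other red cell genes listed from knowledge of these cells, 59 were in the count table, and 55 or 56 passed the filter on low counts in each comparison. They cover heme synthesis, iron and heme transport, the membrane and its skeleton, erythroid transcription factors with erythropoietin signalling, and red cell enzymes. Many are also transcribed by brain cells. The lists were drawn up with earlier results of these data known, so the counts and p-values of their genes are no independent support. Between the phenotypes of 2023, 43 of 56 had negative log2 fold changes, with a median of −0.16, and none was DT by edgeR. An unadjusted p below 0.05 was found for 7, 6 of them lower in piscivores, beside 13.7% of all genes. DESeq2 called 1, beside 1.87% of all genes. The lowest value belonged to hemgn, which encodes the erythroid nuclear protein hemogen, at −1.12 (SE 0.39, adjusted p = 0.289). In 2022, 29 of 55 were positive, with a median of 0.06, and none was DT by edgeR or DESeq2 (0.637% of all genes by DESeq2), with 8 at an unadjusted p below 0.05, all higher in piscivores, beside 7.25% of all genes. Groups that do not overlap were found for 11 of 56 list genes in 2023, 10 of them lower in piscivores, and for 10 of 55 in 2022, beside 20.3% and 13.7% of all genes.

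Between the years of planktivores 44 of 56 list genes had positive log2 fold changes, with a median of 0.25, and 2 rose in 2023. These were cahz, a red cell carbonic anhydrase, with 122 ± 33.3 CPM in planktivores of 2023 and 42.4 ± 3.68 CPM in those of 2022 (log2 fold change 1.53, SE 0.21, adjusted p = 0.0312 from edgeR), and tfr1a, a transferrin receptor that takes up iron, with 87.4 ± 19.8 CPM in 2023 and 43.0 ± 2.80 CPM in 2022 (log2 fold change 1.02, SE 0.17, adjusted p = 0.0464). Neither call was stable. With 1 library left out, cahz was called in 2 of 6 fits and tfr1a in 0, with adjusted p-values from edgeR of 0.0526 to 0.148 for tfr1a. Over these fits 0 to 2 list genes were called, and none without planktivore 2, 3 or 4 of 2022 or planktivore 6 of 2023. Without planktivore 4 of 2023, 1 was called. DESeq2 called 9, beside 2.92% of all genes. Of the 56 list genes, 20 had an unadjusted p below 0.05, 19 of them higher in 2023, a larger share than the 20% of all genes. Groups did not overlap for 21 list genes higher in 2023 and for 2 lower, beside 27.6% of all genes in either direction and 13.2% higher in 2023. Between the years of piscivores, 31 of 55 were positive, with a median of 0.09, and none was DT by either tool, with 7 at an unadjusted p below 0.05, which is a smaller share than the 17.3% of all genes.

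By list, the medians moved in different amounts. In 2023 the transcription factors and Epo signalling genes had a median log2 fold change of −0.37 between piscivores and planktivores (12 of 15 negative), the enzymes −0.32 (8 of 9 negative), the membrane genes −0.22 (9 of 10 negative), the iron and heme transport genes −0.04 (10 of 15 negative) and the heme synthesis genes −0.04 (4 of 7 negative). Among transcription factors nfe2, which pairs with small Maf proteins at globin genes, had −0.85 (SE 0.16, adjusted p = 0.0986). In 2022 the same lists had medians of −0.13, 0.19, −0.02, 0.07 and 0.23. For planktivores of 2023 over 2022 they had 0.28, 0.27, 0.08, 0.21 and 0.26. Among the enzymes blvrb, a biliverdin reductase, had 1.04 (SE 0.28, adjusted p = 0.106 from edgeR). The membrane genes were divided, with 6 of 10 positive and 4 negative. Among them rhag, an ammonium transport protein of the red cell membrane, had 1.36 (SE 0.44, adjusted p = 0.156 from edgeR). By contrast, ank1a averaged 185 CPM in planktivores of 2023 and 202 CPM in those of 2022, and epb41a 40.2 and 51.2 CPM. The mean of add2 was 106 CPM in planktivores of 2023 and 97.9 CPM in those of 2022. In piscivores the corresponding medians were 0.20, 0.09, −0.01, 0.09 and −0.15.

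**Figure D5:**
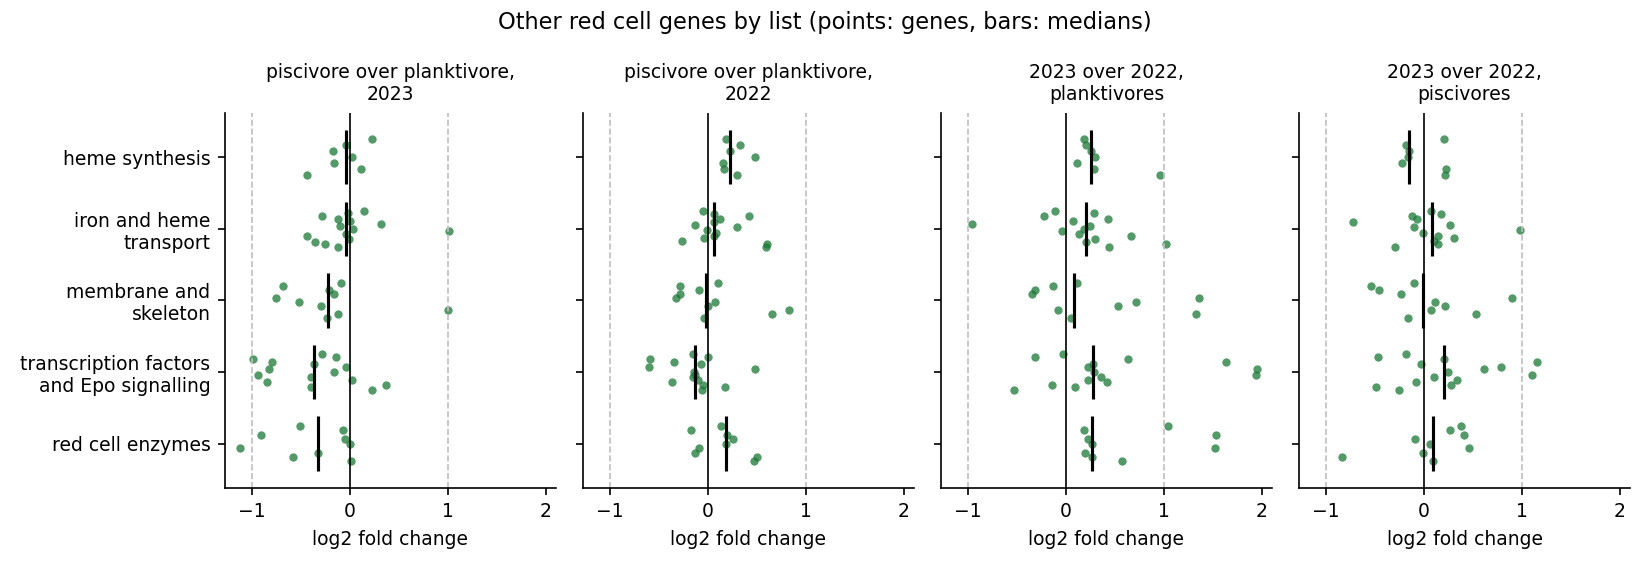
Log2 fold changes (horizontal axes, edgeR) of the other red cell genes by list in the 4 comparisons, with 1 point per gene tested, bars at the medians and dashed lines at −1 and 1. Most points lie between these lines, and medians are below 0 between the phenotypes of 2023 and above 0 between the years of planktivores.

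Genes whose pattern over the 12 libraries was most like that of the 4 genes were ranked by Pearson's r with the mean of their z-scores of log2 CPM, among 19143 genes with a mean of at least 1 CPM. The 10 highest were hdr (0.99), cahz (0.96), tubb1 (0.96), LOC116056863 (0.96), wbp4 (0.95), hemgn (0.95), adrb3a (0.95), LOC116064657 (0.94), aqp8a.2 (0.94) and slc43a3b (0.94). hdr is a hematopoietic death receptor gene of zebrafish, tubb1 a beta tubulin of platelets in mammals, and adrb3a encodes a beta-adrenergic receptor. hdr averaged 10.9 CPM in piscivores and 35.3 CPM in planktivores of 2023, and 6.77 CPM in piscivores and 5.70 CPM in planktivores of 2022. Of the red cell lists, 7 genes were among the 50 highest, which is 14% of these 50 and 12.7% of the 55 list genes ranked, beside 0.287% of all ranked genes that are on the lists. Most list genes ranked lower, with 9 of the 55 among the 100 highest. The lowest of them, flvcr1 of the iron and heme transport list, had an r of −0.83 at rank 19060. Of the 5 hemoglobin genes, whose choice is not independent of these libraries, 4 were among the 50 as well. The libraries share the group differences already described, so these values are a description.

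Other cells that a dissected brain can hold were followed by their markers. The 4 thrombocyte markers measured, of 5 listed, summed to 15 to 23.9 CPM in piscivores and 21.9 to 38.6 CPM in planktivores of 2023, and to 15.1 to 23.7 CPM in piscivores and 17.3 to 19.0 CPM in planktivores of 2022. The 8 leukocyte markers measured, of 10, summed to more in piscivores of 2023, with 1736 to 3488 CPM against 749 to 1585 CPM in planktivores. Taken singly, 1 of the 8 had groups without overlap in 2023, higher in piscivores, beside 20.3% of all genes in either direction. In 2022 the sums overlapped, at 1224 to 2230 CPM in piscivores and 913 to 2165 CPM in planktivores. The 10 markers of vessel endothelium summed to 140 to 178 CPM in piscivores and 118 to 148 CPM in planktivores of 2023, and to 151 to 203 CPM in piscivores and 156 to 180 CPM in planktivores of 2022. Of the 4 thrombocyte markers, 1 had groups without overlap in 2023, lower in piscivores, and their median log2 fold change was −0.79. In 2022 the median was 0.03 and all groups overlapped. Between the years of planktivores 3 of the 4 did not overlap, all higher in 2023 (median 1.23), beside 27.6% of all genes. Of the 10 endothelium markers 3 were higher and 1 lower in piscivores of 2023 without overlap, beside 20.3% of all genes. None of these blood and vessel markers was DT by edgeR in any of the 4 comparisons. Their part in the differences of the red cell genes was not tested.

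The 4 skeletal muscle markers measured, of 6, summed to 3.83 to 9.21 CPM in piscivores and 4.59 to 30.1 CPM in planktivores of 2023, and to 3.02 to 7.60 CPM in piscivores and 29.7 to 35.1 CPM in planktivores of 2022. They were thus high in planktivores of 2022, in which slc4a1a, nt5c2l1 and alas2 were at their lowest group means. The lowest group mean of kel was in piscivores of 2022, at 2.38 CPM against 5.58 CPM in planktivores of 2022. In 2022 all 4 muscle markers were lower in piscivores without overlap, with a median log2 fold change of −2.87. Of these markers, 2 fell in piscivores by edgeR's test, beside 0.0533% of all genes that were DT. These were the muscle creatine kinases ckma (−3.51, SE 0.29, adjusted p = 0.0129) and ckmb (−3.76, SE 0.33, adjusted p = 0.0129). With 1 library left out the adjusted p lay between 0.0203 and 0.136 for ckma, which was called only without piscivore 1, and between 0.0490 and 0.164 for ckmb, which was called only without piscivore 2. In 1 fit to all 12 libraries neither was called (adjusted p = 0.129 for ckma and 0.168 for ckmb). The part of muscle RNA in the differences of the red cell genes was not tested.

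Markers of the brain itself were present throughout. The 6 neuronal markers measured, of 8, summed to 3700 to 4151 CPM in piscivores and 4237 to 4999 CPM in planktivores of 2023, without overlap and in the same direction as the red cell genes, and to 3784 to 4357 CPM in piscivores and 4017 to 4356 CPM in planktivores of 2022. The 4 glial markers measured, of 5, summed to 5973 to 8152 CPM in piscivores and 6322 to 7909 CPM in planktivores of 2023, and to 6320 to 11480 CPM in piscivores and 7187 to 9067 CPM in planktivores of 2022. None of these neuronal and glial markers was DT by edgeR in the 4 comparisons.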

How the data were processed

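Per the submitters' processing notes and the paper's methods, the authors trimmed reads, mapped them with STAR 2.5.2 to SLUC_FBN_1.2 and used featureCounts on exons, with unique reads only. They deposited the resulting raw counts of each gene and, beside them, TPM per library. The 12 count files of single libraries held the same counts as the joint table. Lines without a gene name (24 lines, 0.589% to 3.18% of a library's counts) stayed out of totals and tests.

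Tests on counts used edgeR 4.0.16 in R 4.3.3 (filterByExpr, TMM, robust quasi-likelihood F test, Benjamini-Hochberg adjustment), in a separate fit for each comparison of 3 against 3 libraries, with DESeq2 1.42.0 as the main alternative. The thresholds for DT were an adjusted p of 0.05 and a log2 fold change of 1 in either direction. Log2 CPM used a prior count of 2. Each library is 1 wild fish, so p-values measure the spread between these fish. The fits were tested on simulated data. Python 3.11.15, pandas 2.3.3, scipy 1.17.1 and matplotlib 3.10.9 served for the rest.

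The red cell genes and the lists were chosen with earlier results of these data known. Genes named were these 4, every 5-aminolevulinate synthase, the 5 hemoglobin genes, list genes that were DT in any comparison or else among the 4 highest of their list, and the 10 genes most like the 4 in pattern. Beside them, klf1, flvcr1, ckma and ckmb were named after their values were seen. 1 list gene is counted in its list but its own values are not reported here. A rule to find globins by RefSeq product text could not be applied to the table used, and no sequences were used here. Alternatives tried were DESeq2 (its Wald test, and its size factors in edgeR), a looser filter (1 count) and a stricter one (10 counts in all libraries), a joint fit of the 12 libraries, the fits without ribosomal RNA genes and without the 20 genes of highest count, log2(TPM + 0.1), the replicate block, the adjusted p with no fold limit, and the omission of single libraries.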

Additional observations from a re-analysis of the deposited data

Results flagged for a closer look

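The phenotype difference of LOC116044343, one of the hemoglobin genes, had opposite signs in the 2 years. Its piscivores were all above its planktivores in 2022 (log2 fold change 1.75) and all below them in 2023 (−1.62). Subtracting the difference of 2022 from that of 2023 gave −3.39 (SE, standard error, 0.71) in 1 fit to all 12 libraries, and it did not pass edgeR's quasi-likelihood test over all genes (adjusted p = 0.271).

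The same arrangement, at a smaller size, was found for cpox, coproporphyrinogen oxidase of heme synthesis, with log2 fold changes of 0.23 in 2022 and −0.17 in 2023 (difference −0.41, SE 0.12, adjusted p = 0.586 from edgeR). In alas2, slc4a1a, nt5c2l1 and kel the phenotypes of 2022 overlapped, so none of them showed this arrangement.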

How the results depend on the processing

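The direction of kel, nt5c2l1, slc4a1a and alas2 was the same under every alternative of the phenotype and year comparisons that kept all libraries, and in 2022 none of the 4 became DT. DESeq2's Wald test called more genes of any kind, 411 against edgeR's 36 between the phenotypes of 2023, 148 against 11 in 2022, 603 against 207 between years in planktivores and 391 against 73 in piscivores. Of the hemoglobin genes lower in piscivores of 2023 it called 3 against 0, and without a filter beyond 1 count edgeR called 1. Of list genes lower in piscivores of 2023 DESeq2 called 1 against 0, of list genes higher in planktivores of 2023 than of 2022 it called 9 against 2, and of hemoglobin genes higher in piscivores of 2023 than of 2022 it called 3 against 0. Without a filter, 2 in place of 4 hemoglobin genes were called higher in planktivores of 2023 than of 2022. The cause of these shifts was not tested.

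With 1 library left out, the phenotype log2 fold change of 2022 ranged from −0.19 to 0.76 for nt5c2l1 and from −0.11 to 0.69 for alas2, in each case negative without piscivore 2. It ranged from −0.63 to 0.47 for zgc:163057, −0.13 to 0.73 for LOC116044344, −0.36 to 0.45 for cahz, −0.43 to 0.16 for hemgn and −0.70 to 0.18 for klf1. In 2023 it ranged from −1.23 to 0.13 for LOC116059739 and −0.49 to 1.76 for ckmb, which had −0.01 with all libraries and 0.00499 without a filter beyond 1 count. Between years it ranged from −0.42 to 2.08 for LOC116062215 in planktivores, and in piscivores from −0.43 to 0.59 for LOC116044343 and −0.31 to 0.77 for zgc:163057. List genes called higher in planktivores of 2023 numbered 0 to 2 and hemoglobin genes 0 to 3, and hemoglobin genes higher in piscivores of 2023 numbered 0 to 1. The phenotype difference of 2022 taken from that of 2023 ranged from −2.84 to −1.91 for nt5c2l1 and from −2.14 to −1.19 for slc4a1a. Pearson's r over 2022 ranged from −0.25 to 0.47 for kel and nt5c2l1, −0.20 to 0.14 for kel and slc4a1a and −0.0664 to 0.90 for nt5c2l1 and slc4a1a.

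Piscivores and planktivores of 2022 share the replicate numbers 2 and 3, which name different fish. With the replicate block the log2 fold changes were −1.32 for kel, 0.68 for nt5c2l1, 0.70 for slc4a1a and 0.33 for alas2, and it changed no call. Deviations of same-numbered libraries from their group means had correlations of −0.05 and 0.02 over 21789 genes. Libraries with different numbers had −0.21 to 0.27. The check thus gave no sign of a pairing by number, but with 3 libraries per group it cannot exclude one. At the depth of these libraries kel rested on 24 to 185 counts and nt5c2l1 on 30 to 118 counts per library in 2022.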
